A study of Mus musculus with 4 samples.

Results

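The mitosis and spindle genes are 50 genes that drive and carry out cell division, matched by exact symbol among the 25393 genes of an RNA-seq table of cultured mouse astrocytes, and 50 of 50 were found. They are mitotic cyclins and kinases, the spindle checkpoint, the kinetochore, the kinesin motors, the spindle and cytokinesis factors, and the machinery of anaphase, and they lie on 17 chromosomes. Gene positions are given on mm10. Astrocytes were isolated from the cortex and hippocampus of untreated C57BL/6 mice at postnatal day 1, pooled from 2 mice per isolation, grown for about 7 days, shaken at 260 rpm to purify them and grown for a further 24 h. The comparison was between 2 libraries from Tet1 wild-type (WT) mice and 2 from mice with a constitutive knockout (KO, tet1-/-) of Tet1, a dioxygenase that makes 5-hydroxymethylcytosine, in all cells of the animal and not in astrocytes alone. It asks how gene expression in astrocytes differs when Tet1 is missing.

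The members act in a fixed order in a dividing cell. Cyclin-dependent kinase 1 with its cyclins starts mitosis, the kinetochores and motors build the spindle and attach the chromosomes, the spindle checkpoint holds the cell until every chromosome is attached, and the anaphase-promoting complex then destroys cyclin B so that the cell can divide. Most of these genes are transcribed late in the cell cycle, through promoters with CCAAT boxes and a cell-cycle-dependent element called CHR, and quiescent cells such as mature astrocytes carry little of their mRNA. Astrocytes of the newborn brain still divide, and primary cultures of them divide until the dish is full.

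In each library the deposited values were whole reads divided by 1 size factor, and they are called normalized counts here. WT depth was 18749610 and 22673555 reads on genes, and depth under the KO label was 20702980 and 22403163, with 0.901 to 1.07 normalized counts per read. Tet1 itself had 266 and 121 normalized counts in the WT pair and 173 and 463 in the KO-labelled pair, so it was not lower under the KO label. Its log2 fold change was 0.66 (SE 0.65, limma adjusted p = 0.691), where SE is the standard error and the p is adjusted by Benjamini-Hochberg over all genes tested. For that reason the second group is called the libraries labelled KO, or KO replicates 1 and 2 by their label. The Tet1 counts cover the whole gene, and whether the knockout left transcripts that are still counted was not tested. The study reports Tet1 mRNA as almost undetectable in its KO astrocytes. It also reports a lower overall level there of the modified base that Tet1 makes. In the libraries labelled KO, the sex-linked genes also differed from WT. Xist, the RNA of the inactive X chromosome, had 8.54 and 0.920 normalized counts in the WT pair and 2896 and 13367 in the KO-labelled pair, and the Y-linked genes Ddx3y, Eif2s3y, Kdm5d and Uty summed to 3765 and 1909 normalized counts in WT and to 0 and 830.1 under the KO label. The mix of male and female cells and the label cannot be told apart. Astrocyte markers had a summed level over 10 genes of 1901 and 1773 FPKM (reads per kilobase of gene model, scaled to the reads on genes of the library) in WT and 3028 and 477 FPKM under the KO label. Their sum was thus lowest in KO replicate 2, and their median log2 ratio of KO replicate 2 to KO replicate 1 was -1.99. The study describes its RNA-seq as done on more biological repeats of each genotype than the 2 libraries per group used here. The labels do not tie each library to an isolation of its own. The p-values therefore measure the spread between these libraries, which may be technical.

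The promoters of 7 regulators are shown first, because the members share sequence elements there. They are RefSeq promoters on GRCm38.p6, from 120 bases before the start of transcription to 30 bases after it, written 5′ to 3′ on the strand of the gene. Capitals mark the CHR element, searched as TTTGAA or TTTAAA, and the CCAAT box, which reads ATTGG where it lies on the other strand.
Cdk1 (chr10:69352883-69353032, minus strand): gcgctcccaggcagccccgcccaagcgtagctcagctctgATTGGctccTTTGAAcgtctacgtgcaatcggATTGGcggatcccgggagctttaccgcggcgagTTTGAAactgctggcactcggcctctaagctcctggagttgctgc
Ccnb1 (chr13:100786457-100786606, minus strand): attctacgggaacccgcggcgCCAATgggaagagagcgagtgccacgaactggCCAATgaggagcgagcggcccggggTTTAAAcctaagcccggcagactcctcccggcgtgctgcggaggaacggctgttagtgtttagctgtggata
Ccnb2 (chr9:70421525-70421674, minus strand): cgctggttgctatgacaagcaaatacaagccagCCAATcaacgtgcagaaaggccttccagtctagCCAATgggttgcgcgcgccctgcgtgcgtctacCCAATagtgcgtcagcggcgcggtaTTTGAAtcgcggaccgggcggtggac
Cdc20 (chr4:118437314-118437463, minus strand): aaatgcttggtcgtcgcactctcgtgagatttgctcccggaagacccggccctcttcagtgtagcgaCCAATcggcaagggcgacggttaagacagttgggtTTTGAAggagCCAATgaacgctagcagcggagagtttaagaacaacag
Plk1 (chr7:122159315-122159464, plus strand): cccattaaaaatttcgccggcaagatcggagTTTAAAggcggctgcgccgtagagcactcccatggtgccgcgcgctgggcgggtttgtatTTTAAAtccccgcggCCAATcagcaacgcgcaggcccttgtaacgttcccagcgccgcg
Aurka (chr2:172370541-172370690, minus strand): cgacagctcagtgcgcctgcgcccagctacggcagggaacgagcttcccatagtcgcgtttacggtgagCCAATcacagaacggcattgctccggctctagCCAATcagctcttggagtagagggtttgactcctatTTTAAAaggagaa
Bub1 (chr2:127831830-127831979, minus strand): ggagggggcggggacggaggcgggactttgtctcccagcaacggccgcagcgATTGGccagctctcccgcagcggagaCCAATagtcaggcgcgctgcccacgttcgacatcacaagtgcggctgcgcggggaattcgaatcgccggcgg
Of the 50 members, 40 had a promoter in the RefSeq table, with 42 promoters among them. Ccna2, Cdc25c, Foxm1, Pbk, Aurkb, Incenp, Kif20a, Tpx2, Dlgap5 and Cdca2 were not in it. On either strand, a CHR sequence lay within 50 bases of the start in 32 of the 42 member promoters (76.2%) and in 8.28% of all 32851 promoters of the table. Over the whole window, from 250 bases before the start to 50 after it, the shares were 83.3% and 27.6%. A CCAAT box lay within 50 bases of the start in 23 of the 42 promoters (54.8%), against 13.6% of all promoters, and over the whole window in 76.2%, against 37.4%. The E2F half-site GCGGGAA was in 0 of the 42, against 4.60% of all promoters in the whole window. In Cdk1 the CHR sequences began at positions -71 and -15, in Ccnb1 at -42, in Cdc20 at -18 and in Plk1 at -89 and -29 within the stretch shown, counted from the start of transcription. Bub1 held no CHR sequence in its window and had CCAAT boxes at -68 and -42. These matches describe letters in a window and are not measured binding.

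All 50 members had a higher mean log2 level in the libraries labelled KO than in WT. The median log2 fold change over the 50 was 2.81, with a range from 0.22 to 4.40, while the median over all 22094 genes tested was -0.068. In 47 of the 50 the KO-labelled pair lay wholly above the WT pair, and over all genes tested that share was 22.5%. The remaining 3, Cdc25b, Kif15 and Hmmr, overlapped. In Kif20b, counted among the 47, the lower library labelled KO and the higher WT library held the same 21 reads.

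No member passed the limma or the edgeR test between the labels after adjustment, while DESeq2 called 26. With limma on log2(normalized count + 1) and Benjamini-Hochberg adjustment over all genes tested, 0 of the 50 were called, as were 0% of all genes, and the members' adjusted p from limma ranged from 0.186 to 0.845. At an unadjusted p under 0.05, limma had 43 of the 50 members, each higher, beside 4.54% of all genes higher at that level. edgeR's quasi-likelihood test on the recovered reads also called 0 members and 0% of all genes, with adjusted p from 0.190 to 0.879 in edgeR and 35 members higher at an unadjusted p under 0.05, beside 4.23% of all genes in that direction. DESeq2 on the same reads called 26 members higher, beside 1.64% of the 17382 genes to which it gave an adjusted p. In all it called 285 genes higher and 803 lower. The 26 were Mki67, Top2a, Ccna2, Cdk1, Cdc25c, Foxm1, Plk1, Aurka, Nek2, Birc5, Cdca8, Bub1, Bub1b, Ttk, Cenpe, Kif11, Kif20a, Kif23, Kif2c, Kif4, Tpx2, Aspm, Dlgap5, Prc1, Anln and Ect2. With 2 libraries against 2, the smallest two-sided p that exact permutation of the labels allows for 1 gene is 0.333. The 43 members of the limma count became 13 without KO replicate 1, beside 8.24% of all genes higher at that level, and 1 without KO replicate 2, beside 4.1%. They became 12 without WT replicate 1, beside 1.24% of all genes, and 37 without WT replicate 2, beside 2.19%. In the same order the median log2 fold change of the members became 3.31, 2.14, 1.72 and 3.75.

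**Figure D1:**
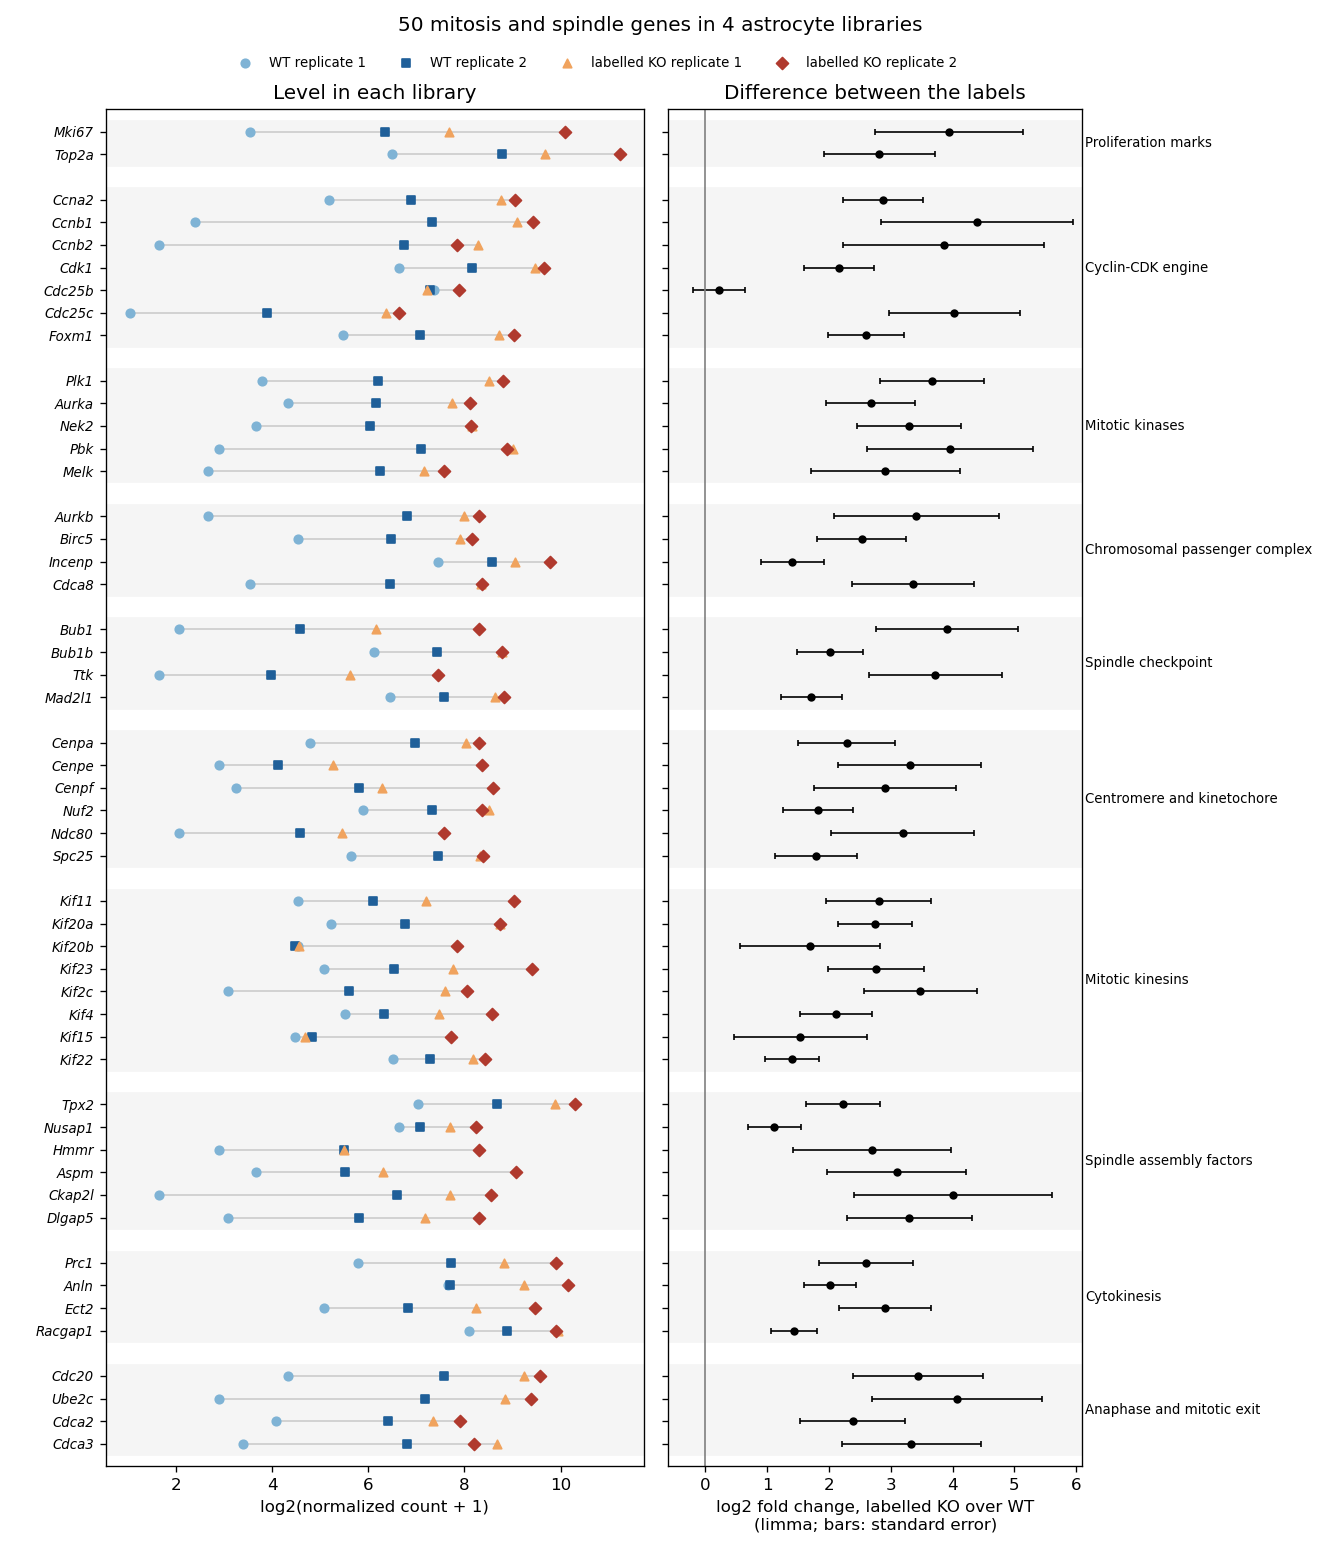
Left, log2(normalized count + 1) of each of the 50 mitosis and spindle genes in the 4 libraries, with 1 symbol per library, grouped by role; right, the limma log2 fold change between the labels with its standard error. WT replicate 1 is the lowest library for most genes and KO replicate 2 the highest, and every fold change lies above 0, from 0.22 for Cdc25b to 4.40 for Ccnb1.

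The WT libraries were far apart, and those labelled KO were closer for most members. The order WT replicate 1 below WT replicate 2 below KO replicate 1 below KO replicate 2 held in 40 of the 50 members and in 9.73% of all genes tested. In 6 others (Ccnb2, Nek2, Pbk, Nuf2, Racgap1 and Cdca3) KO replicate 1 was the highest library. Summed over the 50 genes, the level was 21.9 and 72.6 FPKM in WT and 177 and 271 FPKM under the KO label. Members took 2040 of the reads on genes in WT replicate 1, a share of 0.0109% (95% exact Clopper-Pearson interval 0.0104 to 0.0114). In WT replicate 2 the share was 0.0309% (0.0302 to 0.0316), in KO replicate 1 it was 0.0708% (0.0697 to 0.0720) and in KO replicate 2 it was 0.125% (0.123 to 0.126). Those intervals cover counting error only. The shares thus differed 2.84-fold between the WT libraries, and the share in KO replicate 2 was 11.5 times that in WT replicate 1. The WT libraries differed by a median of 1.93 over the members on the log2 scale, which was more than the 1.21 between KO replicate 1 and WT replicate 2. In these bulk libraries, fewer dividing cells and less of each mRNA per dividing cell cannot be told apart.

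**Figure D2:**
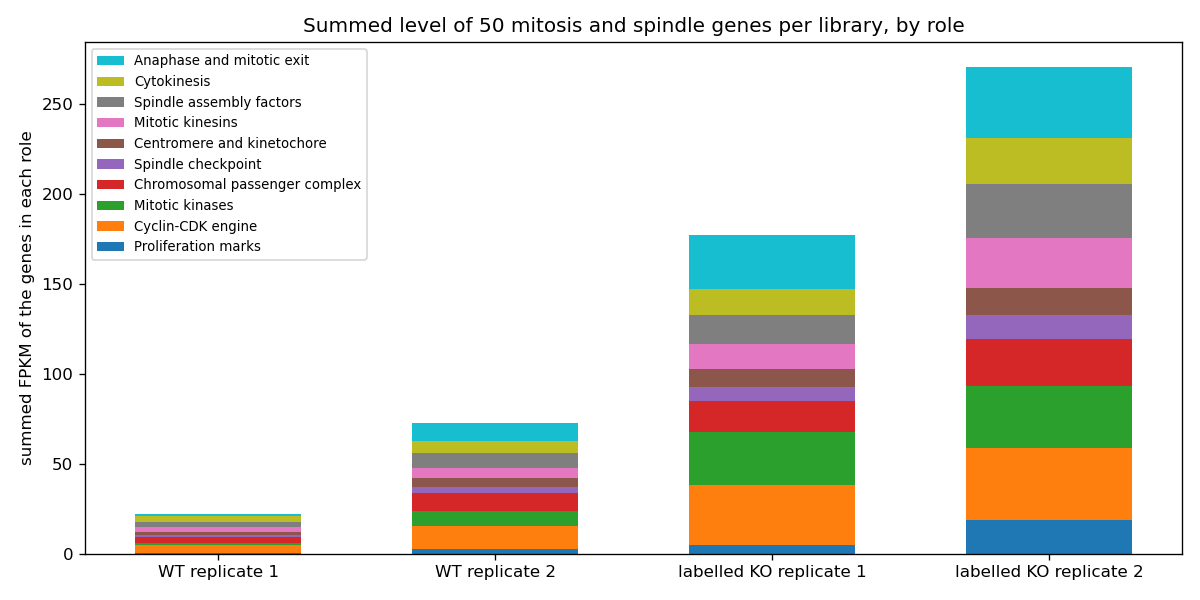
Summed level in FPKM of the 50 mitosis and spindle genes in each of the 4 libraries, stacked by role. The sums are 21.9 and 72.6 FPKM in the WT libraries and 177 and 271 FPKM under the KO label, and every role takes part in the increase from each bar to the next.

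Per length of gene model, the members were scarce mRNAs in WT. Their median level was 0.218 FPKM in WT replicate 1 and 1.21 in WT replicate 2, and the KO label had 2.61 and 4.37 FPKM. A level of at least 1 FPKM was reached by 6 members in WT replicate 1, 30 in WT replicate 2, 39 in KO replicate 1 and 49 in KO replicate 2. WT replicate 1 held at most 10 reads of 19 members and at most 3 reads of 6 (Ccnb2, Cdc25c, Bub1, Ttk, Ndc80 and Ckap2l), so fold changes of these genes rest on very few WT reads. By the mean over the 4 libraries, the most abundant member was Cdc20, with 0.514 and 4.91 FPKM in WT and 14.5 and 20.1 FPKM under the KO label. The least abundant by that mean was Kif15, with 0.0968 and 0.120 FPKM in WT and 0.101 and 0.944 FPKM under the KO label. Within WT the order was another: Incenp was the highest in both libraries, at 2.70 and 5.65 FPKM, and the lowest were Ttk in WT replicate 1, at 0.0217 FPKM, and Cenpe in WT replicate 2, at 0.0921 FPKM.

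Both proliferation marks were ordered through the 4 libraries. Mki67 (ENSMUSG00000031004, chr7:135689784-135716361, minus strand) encodes Ki-67, the coat protein of mitotic chromosomes that is stained to find dividing cells, and its levels were 10.7 and 80.0 normalized counts in the WT pair and 203 and 1091 in the KO-labelled pair. The 4 libraries stood in a row with no overlap, and each was more than 2-fold above the one before. The mean was 45.3 ± 49.0 normalized counts in WT and 647 ± 627 under the KO label (SD, n = 2), and the log2 fold change was 3.94 (SE 1.20, limma adjusted p = 0.284). Top2a, the topoisomerase that untangles replicated DNA, had 88.6 and 442 normalized counts in the WT pair and 818 and 2405 in the KO-labelled pair, again without overlap and in that order. Its log2 fold change was 2.82 (SE 0.90, limma adjusted p = 0.301).

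In the engine that starts mitosis, Cdk1 and its cyclins were higher under the KO label. Cdk1 (ENSMUSG00000019942, chr10:69335146-69352938, minus strand), the kinase of mitotic entry, had 98.2 and 284 normalized counts in the WT pair and 709.7 and 804 in the KO-labelled pair. The KO-labelled pair lay close together and well above both WT libraries, at a log2 fold change of 2.17 (SE 0.56, limma adjusted p = 0.241). Cdk1 lies on chromosome 10, 6.43 Mb from Tet1. Ccnb1, the cyclin B that Cdk1 binds, had 4.27 and 159 normalized counts in the WT pair and 545 and 683 in the KO-labelled pair. As a ratio, the WT libraries differed more from each other than WT replicate 2 did from either library labelled KO. The largest limma log2 fold change of the members, 4.40 (SE 1.55, limma adjusted p = 0.335), rests on 4 reads in WT replicate 1. For Ccnb1 it was 2.89 in edgeR and 2.91 in DESeq2. Ccnb2, the second cyclin B, had 2.13 and 107 normalized counts in the WT pair and 309 and 228 in the KO-labelled pair, with 2 reads in WT replicate 1. Ccna2, the cyclin of S phase and early mitosis, had 35.2 and 118 normalized counts in the WT pair and 435 and 528 in the KO-labelled pair, and its log2 fold change was 2.87 (SE 0.64, limma adjusted p = 0.204). Foxm1, the transcription factor of late cell-cycle genes, had 43.7 and 134 normalized counts in the WT pair and 423 and 523 in the KO-labelled pair, at a log2 fold change of 2.60 (SE 0.61, limma adjusted p = 0.218).

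The phosphatases that switch Cdk1 on differed from each other. Cdc25c had 1.07 and 13.8 normalized counts in the WT pair and 81.3 and 98.2 in the KO-labelled pair, no overlap between the labels and a log2 fold change of 4.03 (SE 1.06, limma adjusted p = 0.244), on 1 read in WT replicate 1. Cdc25b had 164 and 154 normalized counts in the WT pair and 148 and 234 in the KO-labelled pair. Here only KO replicate 2 stood above WT and KO replicate 1 was the lowest library. The log2 fold change of Cdc25b, 0.22 (SE 0.42, limma adjusted p = 0.845), was the smallest of the 50, and it turned to -0.11 without KO replicate 2.

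The mitotic kinases had a median log2 fold change of 3.30 over 5 genes. Plk1 (ENSMUSG00000030867, chr7:122159439-122169873, plus strand), the Polo kinase that acts from entry to cytokinesis, had 12.8 and 72.6 normalized counts in the WT pair and 366 and 447 in the KO-labelled pair. Its libraries labelled KO were both more than 4-fold above WT replicate 2, with means of 42.7 ± 42.3 normalized counts in WT and 407 ± 57.3 under the KO label (SD, n = 2) and a log2 fold change of 3.67 (SE 0.85, limma adjusted p = 0.214). Aurka, the Aurora kinase of the spindle poles, had 19.2 and 70.8 normalized counts in the WT pair and 212 and 277 in the KO-labelled pair, without overlap. Nek2, which parts the centrosomes, had 11.7 and 64.4 normalized counts in the WT pair and 286 and 280.3 in the KO-labelled pair, and its libraries labelled KO were nearly equal. Pbk and Melk, kinases that are markers of dividing cells, had 3.95 and 2.91 as log2 fold changes, and both held under 10 normalized counts in WT replicate 1 against 136 and 75.4 in WT replicate 2.

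The chromosomal passenger complex corrects wrong attachments of chromosomes and follows them to the midzone. Its kinase Aurkb had 5.33 and 110.3 normalized counts in the WT pair and 254 and 314 in the KO-labelled pair. WT replicate 1 stood apart from the other 3 libraries, and the log2 fold change was 3.41 (SE 1.34, limma adjusted p = 0.361). The scaffold Incenp had 174 and 379 normalized counts in the WT pair and 532 and 881 in the KO-labelled pair, the highest WT level of the complex per length with 2.70 and 5.65 FPKM, and a smaller log2 fold change of 1.41 (SE 0.51, limma adjusted p = 0.343). Birc5 (survivin) and Cdca8 (borealin), which bring the complex to the centromere, had log2 fold changes of 2.53 and 3.36, and neither overlapped between the labels.

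The 4 genes of the spindle checkpoint split by the distance between the libraries labelled KO. Bub1, a kinase of the unattached kinetochore, had 3.20 and 23.0 normalized counts in the WT pair and 70.6 and 317 in the KO-labelled pair. KO replicate 2 was more than 4-fold above KO replicate 1, and the log2 fold change was 3.91 (SE 1.14, limma adjusted p = 0.274). Ttk, the kinase Mps1 at the head of the checkpoint, had 2.13 and 14.7 normalized counts in the WT pair and 48.2 and 173 in the KO-labelled pair, a like pattern with a log2 fold change of 3.72. By contrast Bub1b, which encodes BubR1 of the mitotic checkpoint complex, had 68.3 and 171 normalized counts in the WT pair and 439.9 and 442 in the KO-labelled pair, and the libraries labelled KO were equal within 2 normalized counts. Its log2 fold change was 2.02 (SE 0.53, limma adjusted p = 0.244). Mad2l1 (Mad2), the inhibitor of Cdc20, had 86.4 and 190.3 normalized counts in the WT pair and 398 and 452 in the KO-labelled pair, and the labels did not overlap.

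At the centromere and kinetochore, all 6 genes were higher without overlap, beside 22.5% of all genes, and their median log2 fold change was 2.60. Cenpa, the histone that marks the centromere, had 26.7 and 124 normalized counts in the WT pair and 260.1 and 315 in the KO-labelled pair. Nuf2 and Spc25, of the NDC80 complex that grips microtubules, had log2 fold changes of 1.82 and 1.80 with the libraries labelled KO close together. Ndc80, their partner in the same complex, had 3.20 and 23.0 normalized counts in the WT pair and 42.8 and 191 in the KO-labelled pair. Its library KO replicate 1 was nearer to WT replicate 2 than to KO replicate 2. Cenpe, a kinetochore motor, had 6.40 and 16.6 normalized counts in the WT pair and 37.5 and 329 in the KO-labelled pair, so that 1 library held most of its reads, and the log2 fold change was 3.31 (SE 1.16, limma adjusted p = 0.331). Cenpf, a large kinetochore protein, had 8.54 and 55.2 normalized counts in the WT pair and 77.1 and 386 in the KO-labelled pair.

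The mitotic kinesins ranged from clear separation to overlap. Kif20a, a motor of the midzone, had 36.3 and 108 normalized counts in the WT pair and 426 and 428 in the KO-labelled pair. The libraries labelled KO were equal within 3 normalized counts and above both WT libraries, with means of 71.9 ± 50.4 normalized counts in WT and 427 ± 1.49 under the KO label (SD, n = 2) and a log2 fold change of 2.75 (SE 0.60, limma adjusted p = 0.197). Kif2c, which takes microtubules apart at centromeres, had 7.47 and 47.8 normalized counts in the WT pair and 194 and 263 in the KO-labelled pair, at a log2 fold change of 3.48 (SE 0.91, limma adjusted p = 0.243). Kif11, the Eg5 motor that pushes the poles apart, had 22.4 and 67.1 normalized counts in the WT pair and 147 and 525 in the KO-labelled pair, and Kif23, the midzone motor MKLP1, had 33.1 and 92.0 in the WT pair and 215 and 675 in the KO-labelled pair. In both genes all libraries were ordered and KO replicate 2 was more than 2-fold above KO replicate 1. Kif4, a chromosome motor on chromosome X, and Kif22, another chromosome motor, had log2 fold changes of 2.11 and 1.40.

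Kif20b and Kif15 were high in 1 library alone. Kif20b (ENSMUSG00000024795, chr19:34922361-34975745, plus strand), a motor of late cytokinesis, had 22.4 and 21.1 normalized counts in the WT pair and 22.5 and 229.8 in the KO-labelled pair. Kif15, which helps Eg5 at the spindle, had 21.3 and 27.6 normalized counts in the WT pair and 24.6 and 210.0 in the KO-labelled pair. In each, 3 libraries were within 1.5-fold and KO replicate 2 stood far above them, so the log2 fold changes of 1.69 and 1.54 came from that library and became 0.044 and 0.020 without it.

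Among the spindle assembly factors, Tpx2, the activator of Aurora A, was the most abundant per length with 1.39 and 4.22 FPKM in WT and 9.17 and 13.3 FPKM under the KO label. Its levels were 130.2 and 411 normalized counts in the WT pair and 951 and 1257 in the KO-labelled pair, and its log2 fold change was 2.23 (SE 0.60, limma adjusted p = 0.249). Nusap1, which bundles spindle microtubules, had 98.2 and 134 normalized counts in the WT pair and 208 and 300.1 in the KO-labelled pair, with no overlap and a log2 fold change of 1.11, the lowest of the group. Aspm, a spindle pole protein whose loss causes microcephaly, had 11.7 and 45.1 normalized counts in the WT pair and 78.1 and 539.9 in the KO-labelled pair. Its library KO replicate 2 was far above the rest. Hmmr, an adaptor at the spindle poles, had 6.40 and 44.1 normalized counts in the WT pair and 43.9 and 314 in the KO-labelled pair, where KO replicate 1 and WT replicate 2 were equal within 1 normalized count. Ckap2l and Dlgap5, microtubule-binding proteins of the spindle, did not overlap between the labels. Ckap2l had 2.13 and 96.6 normalized counts in the WT pair and 207 and 377 in the KO-labelled pair, on 2 reads in WT replicate 1, and the log2 fold change of Dlgap5 was 3.30.

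The 4 cytokinesis genes were higher without overlap, beside 22.5% of all genes. Anln (ENSMUSG00000036777, chr9:22332012-22389188, minus strand), the actin-binding anillin of the cleavage furrow, had 201 and 207 normalized counts in the WT pair and 602 and 1145 in the KO-labelled pair. Its WT libraries were almost equal, both libraries labelled KO were above them, and at 2.02 (SE 0.42, limma adjusted p = 0.186) its log2 fold change had the smallest p of the members. The means of Anln were 204 ± 4.46 normalized counts in WT and 873 ± 384 under the KO label (SD, n = 2). Racgap1, of the centralspindlin complex, had 274 and 473 normalized counts in the WT pair and 989 and 963 in the KO-labelled pair, with the libraries labelled KO close together and a log2 fold change of 1.44 (SE 0.38, limma adjusted p = 0.243). Ect2, the exchange factor that turns on RhoA at the furrow, had 33.1 and 112 normalized counts in the WT pair and 303 and 708 in the KO-labelled pair, and Prc1, which bundles the midzone, had 54.4 and 212 in the WT pair and 451 and 955 in the KO-labelled pair. Both were ordered through the 4 libraries.

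The genes of anaphase and mitotic exit had a median log2 fold change of 3.39 over 4 genes. Cdc20 (ENSMUSG00000006398, chr4:118432901-118437352, minus strand), which turns on the anaphase-promoting complex, had 19.2 and 191 normalized counts in the WT pair and 600.5 and 759.8 in the KO-labelled pair. WT replicate 1 was far below the other WT library, and the log2 fold change was 3.44 (SE 1.06, limma adjusted p = 0.287). Ube2c, the ubiquitin enzyme of that complex, had 6.40 and 144 normalized counts in the WT pair and 458 and 665 in the KO-labelled pair, at a log2 fold change of 4.08 (SE 1.38, limma adjusted p = 0.316). Cdca3, which triggers mitotic entry, had 9.60 and 110.3 normalized counts in the WT pair and 409 and 291 in the KO-labelled pair, with KO replicate 1 the highest. Cdca2, a phosphatase subunit on anaphase chromosomes, had a log2 fold change of 2.39 and no overlap.

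The libraries labelled KO were alike for some members and not for others. Between them, the log2 ratio of KO replicate 2 to KO replicate 1 had a median of 0.44 over the 50, beside 0.060 over all genes tested. Among the members it ran from -0.49 for Cdca3 to 3.30 for Kif20b. In 29 members the ratio stayed within 1.5-fold, with Cdk1, Plk1, Aurkb, Bub1b, Kif20a and Cdc20 among them. In 9 it was over 4-fold, namely Kif20b, Cenpe, Kif15, Hmmr, Aspm, Mki67, Cenpf, Bub1 and Ndc80. The 9 genes had longer gene models, with a median of 8620 bases against 4083 in the 29, and their longest transcripts held 42.7% G and C against 48.4%. Split at the middle of the length order, a split chosen after seeing the data, the 25 shorter members had a median of 0.33 and the 25 longer a median of 1.13, with 2 and 15 genes over 2-fold. Across the 50 members, Spearman's rho of this ratio was 0.53 with length and -0.39 with GC content, while length and GC content themselves had a rho of -0.45. The points share the same 2 libraries, and over 12857 genes with a mean of at least 50 normalized counts the rho was 0.18 with length and -0.26 with GC content. With single libraries these ratios have no test.

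The WT libraries showed another pattern. The log2 ratio of WT replicate 2 to WT replicate 1 had a median of 1.93 over the members, beside 0.036 over all genes tested. It was over 2-fold in 42 members and over 4-fold in 24. Its largest values were in shorter genes such as Ccnb2 (5.10), Ckap2l (4.96) and Ccnb1 (4.93). Those 3 genes held only 2, 2 and 4 reads in WT replicate 1. The ratio stayed within 1.5-fold in 5 members, Cdc25b, Kif20b, Anln, Kif15 and Nusap1. Across the 50 members its rho was -0.43 with length and 0.20 with GC content, and over the 12857 genes -0.24 and 0.40. The fold change between the labels had a rho of -0.33 with length and 0.11 with GC content over the members, and -0.053 and -0.034 over the 12857 genes. Medians of the label fold change were 3.30 in the 25 shorter and 2.60 in the 25 longer members. The part of length and GC content in the fold changes was not tested.

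**Figure D3:**
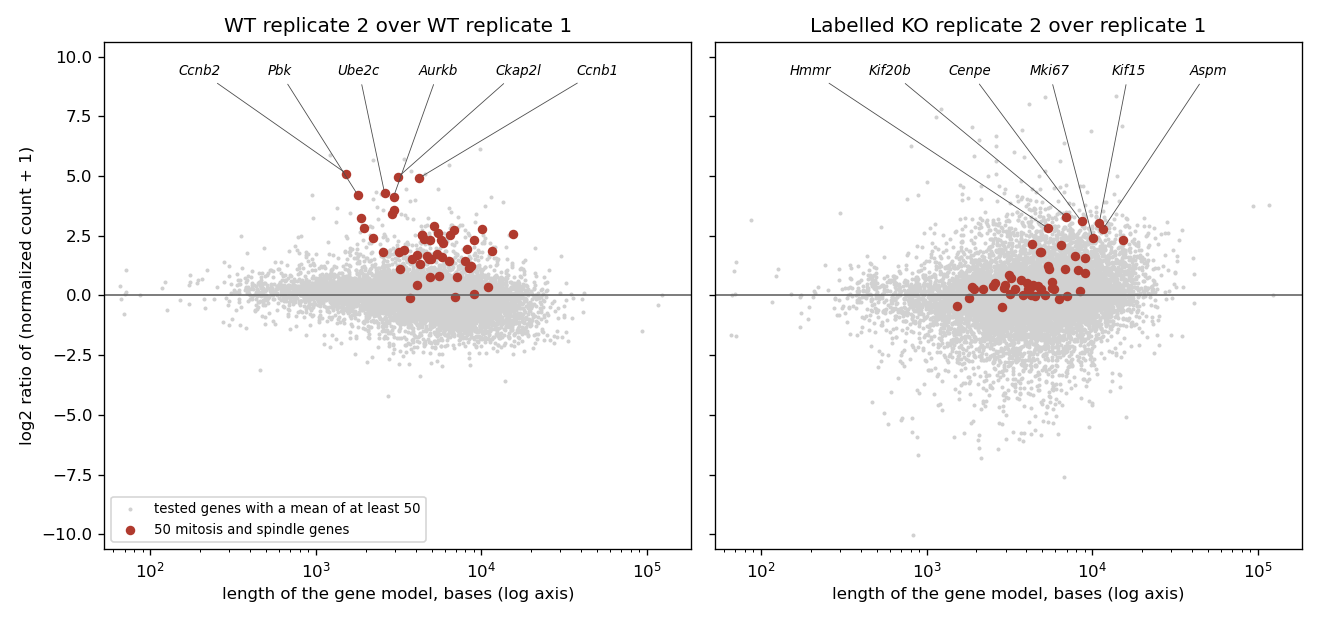
Log2 ratio of (normalized count + 1) between the 2 libraries of each label against the length of the gene model on a log axis; red points are the 50 mitosis and spindle genes, grey points the tested genes with a mean of at least 50 normalized counts, and the 6 highest members are named in each panel. In WT the members lie mostly above 0 with the short genes highest (median 1.93), and under the KO label the ratio is near 0 for short members and highest for long ones (median 0.44).

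Genes that work beside the members had smaller median fold changes. Of 70 other mitotic genes on a second list, 65 had a symbol in the table, and their median log2 fold change was 1.64. The KO-labelled pair lay wholly above the WT pair in 49 of the 65 and wholly below it in 1, beside 22.5% and 25.4% of all genes. At an unadjusted p under 0.05 in limma, 27 were higher and 1 lower, beside 1004 and 2028 of all 22094 genes. DESeq2 called 9 of them higher, beside 1.64% of the genes to which it gave an adjusted p. The most abundant was Zwint, a kinetochore protein, with 3304 and 4097 normalized counts in the WT pair and 6356 and 6556 in the KO-labelled pair, and its log2 fold change was 0.81 (SE 0.29, limma adjusted p = 0.337). Ckap5, a microtubule polymerase, had 4752 and 2560.1 normalized counts in the WT pair and 3715 and 3508 in the KO-labelled pair, with no shift beyond its spread, and Tmpo, of the nuclear lamina, had 1975 and 1914 in the WT pair and 2307 and 3648 in the KO-labelled pair.

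For the 38 genes of DNA replication and S phase the median log2 fold change was 0.98. The labels did not overlap in 29, each higher, beside 22.5% of all genes. At an unadjusted p under 0.05 in limma 16 were higher, beside 4.54% of all genes. DESeq2 called 3 of the 38 higher, beside 1.64% of the genes to which it gave an adjusted p. Pcna, the sliding clamp of replication, had 816 and 1600.0 normalized counts in the WT pair and 2181 and 2936 in the KO-labelled pair, at a log2 fold change of 1.15 (SE 0.42, limma adjusted p = 0.345). Rrm1, of ribonucleotide reductase, had a log2 fold change of 0.95 (SE 0.39, limma adjusted p = 0.373) and Mcm7, of the replicative helicase, one of 0.69 (SE 0.40, limma adjusted p = 0.496). Of the 20 E2F, MYB and MuvB regulators, which control transcription of cell-cycle genes, 8 were higher without overlap and 2 lower, beside 22.5% and 25.4% of all genes, with a median of 0.33. Rbl2 (p130), part of the complex that silences late genes in resting cells, had 1842 and 1841 normalized counts in the WT pair and 1415 and 647 in the KO-labelled pair, lower without overlap at a log2 fold change of -0.94 (SE 0.44, limma adjusted p = 0.422). Rbbp4 of the same complex had 3801 and 4465 normalized counts in the WT pair and 5353 and 4701 in the KO-labelled pair, and Tfdp1, the partner of E2F, had 1101 and 1538 in the WT pair and 1835 and 2292 in the KO-labelled pair. No gene of these lists was called by limma or edgeR after adjustment. DESeq2 called 1 of the 20 regulators higher.

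**Figure D4:**
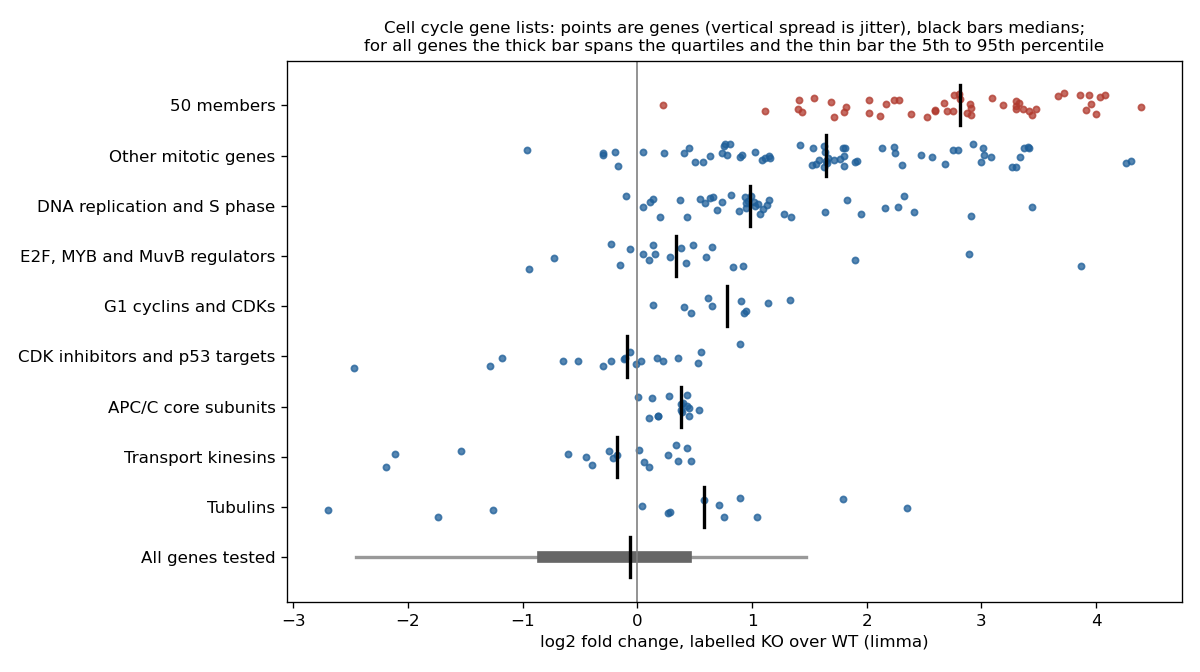
Limma log2 fold change between the labels for the 50 mitosis and spindle genes, for the other cell-cycle lists and for all genes tested; points are genes and black bars are medians. The median is 2.81 for the members, 1.64 for other mitotic genes, 0.98 for replication genes and -0.068 over all genes.

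Of the markers of other cells, those of microglia had the largest median fold change between the labels. The 10 microglial markers summed to 33.2 and 65.5 FPKM in WT and to 4.67 and 2.02 FPKM under the KO label, with 9 of 10 lower without overlap, against 25.4% of all genes, and a median log2 fold change of -3.56. The 10 astrocyte markers had a median of -0.73, with 5 lower and 1 higher without overlap, where 25.4% of all genes were lower and 22.5% higher. Of the 7 neural progenitor markers, whose summed level was 1213 and 1560 FPKM in WT and 1697 and 1677 under the KO label, 1 was higher and 1 lower without overlap, and the median was 0.23. Neuronal markers summed to 19.3 and 23.3 FPKM in WT and 29.0 and 29.7 under the KO label. Of the 6 tested, 4 were higher and 0 lower without overlap, and the median log2 fold change was 1.73. The 8 oligodendrocyte lineage markers summed to 153 and 228 FPKM in WT and to 370.1 and 231 FPKM under the KO label, with 1 higher and 2 lower without overlap and a median of -0.40. The 5 endothelial and mural markers tested summed to 19.97 and 20.98 FPKM in WT and to 19.9 and 9.68 FPKM under the KO label, with 1 higher, 1 lower and a median of -0.53. The 5 meningeal markers summed to 21.2 and 28.1 FPKM in WT and to 26.2 and 16.8 FPKM under the KO label, with 1 higher, 2 lower and a median of -0.53. For the 4 ependymal markers the sums were 118 and 182 FPKM in WT and 135 and 29.5 FPKM under the KO label, with 2 lower and a median of -1.06. No marker was called by limma or edgeR after adjustment. DESeq2 called 8 of the 10 microglial markers lower. It also called 1 oligodendrocyte lineage marker and 1 ependymal marker lower and 1 neuronal marker higher. Over all genes it called 803 lower and 285 higher, of 17382 with an adjusted p. Of the listed markers found in the table, none was at 0 in all 4 libraries. The part of these cells in the levels of the mitosis and spindle genes was not tested.

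Some members may share reads with other annotated genes. In GENCODE M21, 27 of the 50 overlapped another gene, 20 of them one on the other strand, as Ccna2 with Exosc9, Cdc20 with Elovl1, Kif20a with Cdc23 and Ube2c with Tnnc2, and the use of strand in counting is not given in the sources used here. Ccnb1, Ccnb2, Kif22 and Kif4 have annotated pseudogenes of their own name. Overlap was judged on whole gene spans, introns included. How far the counts of these members are uncertain was not measured.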

How the data were processed

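RNA-seq was measured in 4 libraries of astrocytes, 2 WT and 2 labelled KO, grouped by their sample labels. Per the labels the reads were aligned to mm10 by the authors, and the counting program and annotation release are not given in the sources used here. For each gene the authors deposited a signal value per library. The table's name calls these FPKM, but they are reads over a size factor: 100% came out whole, within 0.1 read, and were turned back into reads. Other deposited columns hold gene length and position, which were used, and the mean of each genotype, fold changes and p-values, which were not. FPKM was computed here from recovered reads, gene length and the reads on genes.

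limma 3.58.1 in R 4.3.3 (lmFit, eBayes with a trend) was run on log2(normalized count + 1). The added 1 makes changes of low genes look smaller. The median log2 fold change of the members was still larger in limma, at 2.81, than in edgeR, at 2.53, and DESeq2, at 2.55. Single members went either way: Ccnb1 had 4.40 in limma and 2.91 in DESeq2, and Cenpe had 3.31 and 3.99. Genes entered with a mean of 1 or more, Benjamini-Hochberg adjustment was over all of them, and the threshold was 0.05. The recovered reads went into edgeR 4.0.16 and DESeq2 1.42.0. Alternatives were pseudocounts of 0.1 and 5, no filter, a mean minimum of 10, TMM, equal sums and quantile scaling, eBayes without a trend, a replicate block and leaving out each library in turn. The tests were also run on simulated counts with known changes between the labels. Those counts held no shift between libraries of the same label beyond depth and random spread. Their outcome is not reported here. GC content is that of the longest GENCODE M21 transcript, and promoters are from RefSeq GRCm38.p6. Tables and plots used Python 3.11.15 with pandas 2.3.3, numpy 2.4.6, matplotlib 3.10.9 and scipy 1.17.1.

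The genes named are all 50 members, the 3 tested genes with the highest mean count in each other list, Tet1 and the sex-linked genes. The members and lists were chosen with earlier results of these data known.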

Additional observations from a re-analysis of the deposited data

How the results depend on the processing

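Scaling, pseudocount, filter and variance prior left the direction of all 50 members unchanged, with a median log2 fold change from 2.53 in edgeR to 3.16 under quantile normalization, which moved the median of all genes from -0.068 to 0.075 and left the members 3.08 above it, against 2.88 in the limma fit. The members called were 0 in every setting but DESeq2, which called 26 of them and 1088 genes in all. Leaving out 1 library at a time, limma called 0 members, the median ran from 1.72 to 3.75, and unadjusted p under 0.05 was reached by 1 to 37. Without KO replicate 2 the log2 fold change reversed for Cdc25b, Cdkn1a, Tet1, Ccnd1, Ccng1 and Kif1a. Over the libraries left out, that of Cdc25b ran from -0.11 to 0.55, that of Cdkn1a from -0.17 to 1.24, that of Tet1 from -0.051 to 1.36, that of Ccnd1 from -0.35 to 1.29, that of Ccng1 from -0.82 to 1.27, that of Kif1a from -0.84 to 0.054, that of Ckap5 from -0.40 to 0.50, that of Anapc2 from -0.26 to 0.27 and that of Tuba1a from -0.33 to 0.41. Ckap5, Anapc2 and Tuba1a, which lie near 0 in limma, also reversed with the scaling or tool. Ckap5 was at -0.068 in edgeR, -0.018 in DESeq2, -0.0011 with equal sums and -0.093 with quantile normalization, Anapc2 at -0.020 in edgeR, -0.036 with TMM, -0.046 with equal sums and -0.12 with quantile normalization, and Tuba1a at -0.010 with equal sums and -0.077 with quantile normalization. With a group of 1 library, the lone library was assumed to vary like the other group. With the replicate block the median stayed at 2.81 and 0 genes were called. In that limma fit 46 members had an unadjusted p under 0.05, beside 2583 of all 22094 genes in either direction. Over all genes tested, the deviations of same-numbered libraries had a correlation of -0.084, which does not show the replicate numbers to pair the libraries. That value does not describe the members alone. Replicate 2 was above replicate 1 in 48 of the 50 members in WT and in 44 under the KO label. Pairing within the members was not tested. The number of members higher without overlap was 46 to 50 where a setting could change it. The causes of these changes were not tested. The 4 libraries and the few reads of 19 members in WT replicate 1 limit the precision.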

Other observations

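Genes of the G1 phase and of the brakes on the cell cycle had smaller median fold changes than the mitotic genes. All 10 G1 cyclins and CDKs had a positive log2 fold change, with a median of 0.78, and 6 were higher in the KO-labelled pair without overlap, beside 22.5% of all genes higher and 25.4% lower in that way. Ccnd2, a D-type cyclin, had 8127 and 11286 normalized counts in the WT pair and 18867 and 30673 in the KO-labelled pair, at a log2 fold change of 1.33 (SE 0.40, limma adjusted p = 0.279). Its relative Ccnd1 had 7629.9 and 14547 normalized counts in the WT pair and 8276 and 25735 in the KO-labelled pair, and the labels overlapped. Cdk4, their kinase, had 1938 and 2629 normalized counts in the WT pair and 3151 and 4011 in the KO-labelled pair, without overlap. Among 18 CDK inhibitors and p53 targets the median was -0.09, with 2 higher and 3 lower without overlap, shares below the 22.5% and 25.4% of all genes. At an unadjusted p under 0.05 in limma, 3 of the 18 were lower and 0 higher, beside 2028 and 1004 of all 22094 genes. DESeq2 called 1 of the 18 lower, beside 803 of the 17382 genes to which it gave an adjusted p. Cdkn1a (p21) had 4334 and 5205 normalized counts in the WT pair and 4209 and 11227 in the KO-labelled pair, Ccng1 had 5892 and 4306 in the WT pair and 2858 and 12123 in the KO-labelled pair and Phlda3 had 4544 and 5387 in the WT pair and 2626 and 4567 in the KO-labelled pair. In Cdkn1a and Ccng1 KO replicate 2 was the highest and KO replicate 1 the lowest library.

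The core subunits of the anaphase-promoting complex, which Cdc20 and Ube2c serve, had a median log2 fold change of 0.39 over 15 genes, 8 higher without overlap and none lower, beside 22.5% and 25.4% of all genes, and none with an unadjusted p under 0.05 in limma. Anapc1, its largest subunit, had 2929 and 3399 normalized counts in the WT pair and 3650.0 and 4643 in the KO-labelled pair, Anapc2 had 3981 and 5297 in the WT pair and 5528 and 3837 in the KO-labelled pair and Anapc5 had 3002 and 3271 in the WT pair and 3334 and 3788 in the KO-labelled pair. The 17 transport kinesins, which carry cargo along microtubules, had a median of -0.18, with 3 higher and 6 lower without overlap, against the same shares of all genes. At an unadjusted p under 0.05 in limma, 3 transport kinesins were lower and 0 higher, beside 2028 and 1004 of all 22094 genes. DESeq2 called 1 of them lower, beside 803 of the 17382 genes to which it gave an adjusted p. Kif1a had 11965 and 17377 normalized counts in the WT pair and 14973 and 8036 in the KO-labelled pair, Kif1b had 12517 and 13583 in the WT pair and 11956 and 11078 in the KO-labelled pair and Kif1c had 10542 and 12708 in the WT pair and 9671 and 7452 in the KO-labelled pair, and of these Kif1b and Kif1c were lower without overlap. The 13 tubulins had a median of 0.58, with 8 higher and 3 lower without overlap, against the same shares. At an unadjusted p under 0.05 in limma, 3 tubulins were higher and 2 lower, beside 1004 and 2028 of all 22094 genes. DESeq2 called 2 tubulins higher, beside 1.64% of the genes to which it gave an adjusted p. Tubb5 had 6481 and 7942 normalized counts in the WT pair and 12218 and 17866 in the KO-labelled pair, at a log2 fold change of 1.04 (SE 0.34, limma adjusted p = 0.313), while Tuba1a had 15749.5 and 22334 in the WT pair and 24951 and 14916 in the KO-labelled pair and Tubb2b had 6427 and 13533 in the WT pair and 15451 and 15056 in the KO-labelled pair.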
